A study of Mus musculus with 6 samples.

Results

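Hyaluronan is a long, unsulfated sugar chain of the extracellular matrix, and this account follows 9 genes that make, cut or bind it in the early mouse bladder. They are the synthase genes Has1, Has2 and Has3, the hyaluronidase genes Hyal1 and Hyal2, the receptor gene Cd44, the versican gene Vcan and the link protein genes Hapln1 and Hapln3. They were found as the probe sets to which the array's annotation gives one of these symbols and no other. Of the 9 genes 8 had such a probe set, 22 probe sets in all among the 45101 of the array. Hyal1 had none, because both of its 2 probe sets are annotated to Naa80 as well, so no value is given for it. The fit covered 18193 genes.

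The arrays compare the mesenchyme and the urothelium, the lining epithelium, of bladders from wild-type FVB/N embryos of unknown sex at embryonic day 13 (Theiler stage 21). Both compartments went through 20 minutes in 20 µM EDTA, were parted with a needle, and 2 rounds of amplification followed. There were 3 mesenchyme arrays (1, 2 and 4 in their titles) and 3 urothelium arrays (5, 7 and 8), and the number of arrays limits the precision. The samples were not pooled, but the labels do not say whether they came from separate embryos, so p-values measure only the spread between these samples, which may be technical.

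Hyaluronan is spun out through the plasma membrane by HAS enzymes from UDP-glucuronic acid and UDP-N-acetylglucosamine, and it is cut by hyaluronidases and taken up by cells. Versican, a large chondroitin sulfate proteoglycan, binds it through a globular domain at one end, and link proteins lock that bond. CD44 is the best known cell surface receptor for hyaluronan. In embryonic organs such matrix holds water and is typical of loose mesenchyme.

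The compartments were well parted by their defining markers. All 10 epithelial markers, Cdh1 and Epcam among them, were higher in urothelium, and all 10 mesenchymal markers, Cdh11 among them, were higher in mesenchyme. The summed signal of the epithelial list was 8369 to 11203 on the mesenchyme arrays and 341826 to 374952 on the urothelium arrays. That of the mesenchymal list was 270171 to 309966 and 10235 to 14232. The 3′ probe set of beta-actin outshone the 5′ one by 8.40 and 8.60 times on mesenchyme 1 and urothelium 5 but by 2.29 to 4.89 times elsewhere, so by this measure their RNA was the most biased to 3′ ends. The mesenchyme also held RNA of endothelium and macrophages: 8 of 8 endothelial and 6 of 8 macrophage markers were higher there. The macrophage list summed to 10299 to 14359 on mesenchyme arrays and 1425 to 1589 on urothelium arrays, and the endothelial list to 17744 to 22029 and 704 to 879. Fewer cells of a type and less RNA per cell cannot be told apart in such bulk samples.

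Of the 8 measured genes, 3 were higher in mesenchyme (Has2, Cd44 and Hapln3) and 0 were higher in urothelium, at an adjusted p under 0.05 in limma's linear model. Over all genes tested, 8.91% were higher in mesenchyme and 5.80% in urothelium at that adjusted threshold. With an unadjusted p under 0.05 the counts of the 8 genes were also 3 and 0. The share of all genes at the unadjusted threshold is not given here. The median log2 difference of the 8 genes was −0.37, beside −0.11 for all genes. Differences are of log2(signal + 45), urothelium minus mesenchyme, so a negative value means a higher level in mesenchyme, and dim genes appear to change less than they do. The arrays of the compartments did not overlap for 4 of the 8 genes, against 30.1% of all genes. Without mesenchyme 1 and urothelium 5 the counts were again 3 and 0.

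**Figure D1:**
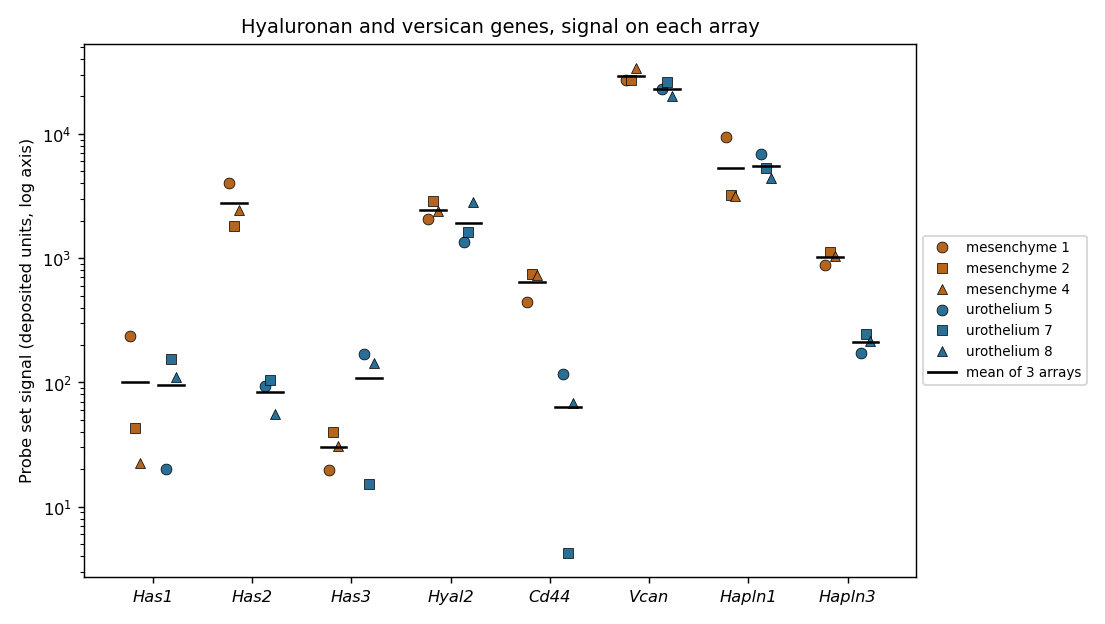
Signal of the probe set used for each of the 8 genes on each of the 6 arrays, in the deposited units on a log axis, with the 3 mesenchyme arrays in brown, the 3 urothelium arrays in blue and a bar at each mean. Has2, Cd44 and Hapln3 stand apart by compartment, Vcan is bright in both, and Has1, Has3, Hyal2 and Hapln1 overlap.

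The hyaluronan synthases were not alike. Has2, the synthase that most embryonic hyaluronan depends on in the mouse, had signals of 4061, 1829 and 2452 on mesenchyme 1, 2 and 4. On urothelium 5, 7 and 8 they were 93.1, 104 and 55.2. Every mesenchyme array lay far above every urothelium array. The means were 2780 ± 1152 (SD, n = 3) and 84.2 ± 25.7, with a log2 difference of −4.39 ± 0.42 (SE), which is 21.0-fold on that scale (limma adjusted p = 4.32e-05). Its dimmer probe set, 1418678_at, gave 742, 949 and 599 against 21.9, 61.2 and 62.9, and a difference of −3.12 ± 0.45 (adjusted p = 0.00143 over all probe sets). In the mean of both the difference was −3.76 and past the test. Both probe sets therefore separated the compartments, though mesenchyme 1 was the highest mesenchyme array on the brighter one and mesenchyme 2 on the dimmer one.

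Has1, a synthase with lower activity, had 236, 42.9 and 22.6 in mesenchyme and 20.3, 154 and 111 in urothelium. The arrays of both compartments spanned the same low range, and mesenchyme 1 and urothelium 5 were at opposite ends of it. The log2 difference was 0.09 ± 0.59 with a 95% interval from −1.20 to 1.39 (limma adjusted p = 0.949), so a difference of either sign is within its error. Its sign turned without mesenchyme 2 (−0.12), mesenchyme 4 (−0.31), urothelium 7 (−0.23) or urothelium 8 (−0.057), and without both mesenchyme 1 and urothelium 5 the difference was 1.19 (adjusted p = 0.0542).

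Has3, a synthase known from epithelia such as the epidermis, had 19.6, 39.9 and 31.0 in mesenchyme. Urothelium 5 and 8 were higher, at 169 and 144, but urothelium 7 was the lowest of all 6 arrays at 15.1. The log2 difference was 0.85 ± 0.47, with an interval from −0.19 to 1.89, and was not past the test (limma adjusted p = 0.311). Without urothelium 7 it was 1.43 and past the test (adjusted p = 0.0457), the only 1 of 14 alternatives to pass. It was 0.51 without urothelium 5, 0.60 without urothelium 8 and 0.10 with array weights. All signals of Has1 and Has3 lay below 237, and the array medians were 132 to 240, so neither gene gave more than a dim signal in either compartment. No detection calls were used, so a dim signal is not called absent.

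Hyal2 encodes a hyaluronidase anchored to the cell surface, which makes the first cuts in the long chain. It had 2049, 2906 and 2381 in mesenchyme and 1352, 1618 and 2804 in urothelium. Urothelium 8 lay within the mesenchyme range and the other urothelium arrays below it. The log2 difference was −0.39 ± 0.34, with an interval from −1.14 to 0.36 (limma adjusted p = 0.551). The interval thus reaches past 0 on the side of urothelium and further on the side of mesenchyme.

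Cd44 was higher in mesenchyme on its brightest probe set. This gene encodes a membrane glycoprotein that binds hyaluronan outside the cell and the cortical cytoskeleton inside it. It gave 442, 751 and 731 in the mesenchyme and 116, 4.27 and 68.8 in the urothelium. Every mesenchyme array lay well above the highest urothelium array, number 5. The means were 641 ± 173 (SD, n = 3) and 63.0 ± 56.0, a log2 difference of −2.79 ± 0.51 (limma adjusted p = 0.00320). The size depends on the constant added to such dim signals, and was −4.16 with 1 in place of 45 and −1.765 with 179, both past the test.

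The 4 probe sets of Cd44 differed. A second one, 1423760_at, gave 56.8, 432 and 339 in mesenchyme and 74.5, 72.8 and 8.59 in urothelium. Here mesenchyme 1 fell among the urothelium arrays, and the difference of −1.54 ± 0.63 was not past the test (limma adjusted p = 0.225). The other two, 1443265_at and 1452483_a_at, stayed at or below 73.6 on every array and had differences of −0.036 and −0.22, the first of which turned to 0.15 with arrays centred on their medians. With the mean of all 4 probe sets the difference was −1.15 and still past the test (adjusted p = 0.0456). Macrophage markers, whose cells carry CD44, were higher in the same mesenchyme arrays, and their part in this result was not tested.

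Vcan, whose product fills hyaluronan-rich matrix, had a strong signal in both compartments. Its brightest probe set gave 27178, 27118 and 33743 in mesenchyme and 22813, 26319 and 19991 in urothelium. The lowest mesenchyme array was only just above the highest urothelium array, so the compartments did not overlap but nearly touched. The log2 difference was −0.35 ± 0.25, with an interval from −0.90 to 0.20, and was not past the test (limma adjusted p = 0.449). The interval does not reach a 2-fold difference in either direction on this probe set.

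The 8 probe sets of Vcan leaned the same way without any passing the test. Their differences ran from −0.97 to −0.25, all towards mesenchyme, as they also were after quantile normalization and median centring. The second brightest, 1421694_a_at, gave 8503, 22035 and 12401 in mesenchyme and 3307, 8028 and 11448 in urothelium, with overlap between the compartments (−0.97 ± 0.47, limma adjusted p = 0.323). Another, 1427257_at, gave 5463, 10059 and 4850 against 3334, 3984 and 3310, without overlap (−0.86 ± 0.32, adjusted p = 0.171). The remaining 5 stayed at or below 363 on every array. Versican has splice forms that differ in their sugar-bearing stretch, and the annotation used here does not say which of them each probe set reads.

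Hapln1 encodes the link protein first known from cartilage, which clamps versican or aggrecan to hyaluronan. Its brightest probe set gave 9515, 3214 and 3171 in mesenchyme and 6891, 5275 and 4424 in urothelium. Mesenchyme 1 was the highest array, and mesenchyme 2 and 4 were the lowest. The log2 difference was 0.24 ± 0.41, with an interval from −0.67 to 1.15 (limma adjusted p = 0.795), and it turned to −0.016 without mesenchyme 2 and −0.026 without mesenchyme 4. Without mesenchyme 1 it was 0.76 (adjusted p = 0.108).

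The other 3 probe sets of Hapln1 did not share the high value on mesenchyme 1, and on each of them every urothelium array lay above every mesenchyme array. On 1426294_at the signals were 638, 778 and 701 in mesenchyme and 1062, 1224 and 1189 in urothelium (0.68 ± 0.31, limma adjusted p = 0.289). On 1421633_a_at they were 2036, 1697 and 1501 against 2291, 2603 and 2154 (0.43 ± 0.28, adjusted p = 0.516). On 1426295_at they were 644, 657 and 402 against 694, 1151 and 1022 (0.71 ± 0.37, adjusted p = 0.373). None of the 4 passed the test, and all of their differences pointed towards urothelium.

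Hapln3, a link protein gene of less studied function, was higher in mesenchyme. Its only probe set gave 884, 1125 and 1038 in mesenchyme and 174, 247 and 215 in urothelium. The 3 mesenchyme arrays agreed closely, and all lay far above the 3 urothelium arrays. The means were 1016 ± 122 (SD, n = 3) and 212 ± 36.9, a log2 difference of −2.05 ± 0.38 (limma adjusted p = 0.00327).

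Over all 22 probe sets, 4 were higher in mesenchyme and 0 in urothelium, where 4.46% and 2.88% of all probe sets of the array were. They were both probe sets of Has2, 1 of Cd44 and that of Hapln3. With no overlap between compartments there were 9, against 23.1% of all probe sets. Probe sets of a gene read the same RNA and are not replicates.

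**Figure D2:**
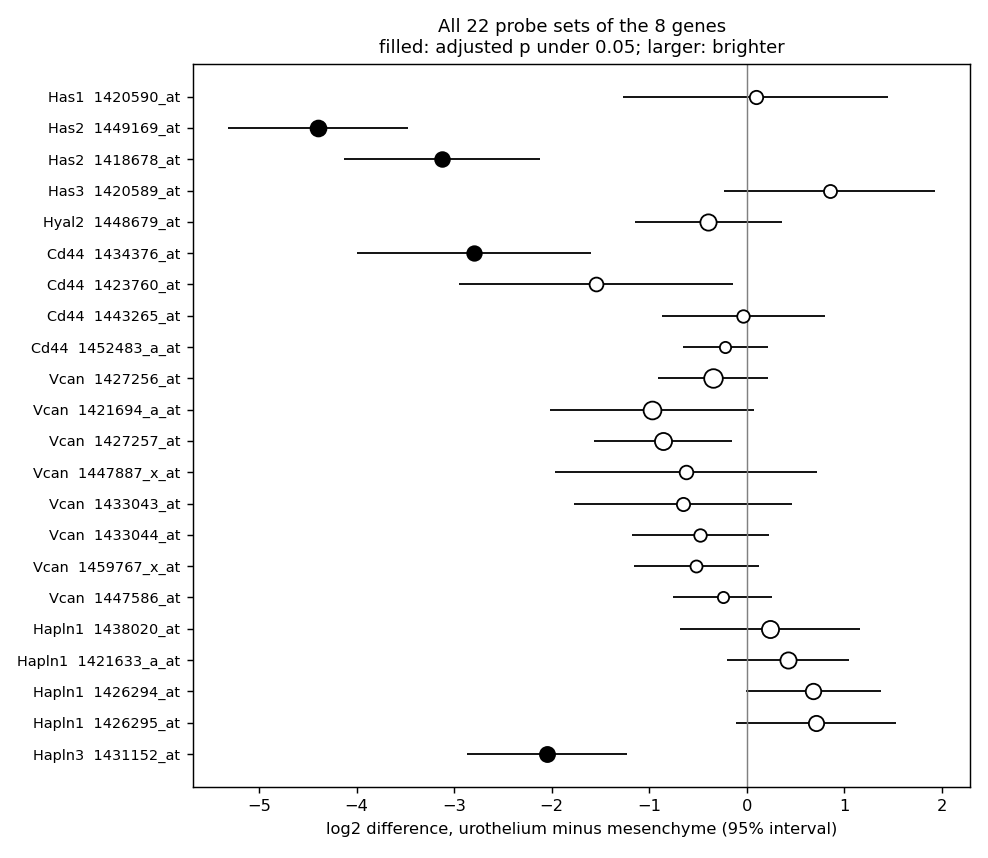
Log2 difference, urothelium minus mesenchyme, of the 22 probe sets of the 8 genes, with 95% intervals from the limma fit over every probe set. Filled points have an adjusted p under 0.05 and larger points are brighter. The 8 points of Vcan lie left of 0 and the 4 of Hapln1 right of it, all of them open.

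Promoter windows from RefSeq, 250 bases before to 50 after an annotated start, were matched for 7 of the 9 genes; Has2 and Has3 were not matched in the table used here. Those of Cd44 and Hapln3 are shown because these genes were higher in mesenchyme, and those of Vcan and Hapln1 because they are neighbours in the genome and neither passed the test. All are from GRCm38.p6, written 5′ to 3′ on the strand of the gene. Capitals mark matches on either strand to the TATA box (TATAAA), the CCAAT box (CCAAT) and the GC box (GGGCGG). None of these motifs overlapped each other in the windows shown.
Cd44, chr2:102901616-102901915, minus strand: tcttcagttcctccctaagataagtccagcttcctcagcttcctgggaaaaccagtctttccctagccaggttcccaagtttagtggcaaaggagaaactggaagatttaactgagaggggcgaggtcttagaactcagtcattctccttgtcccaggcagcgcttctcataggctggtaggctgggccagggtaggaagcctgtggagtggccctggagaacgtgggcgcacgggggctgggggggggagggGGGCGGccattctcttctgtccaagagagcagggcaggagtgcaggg
Hapln3, chr7:79130969-79131268, minus strand: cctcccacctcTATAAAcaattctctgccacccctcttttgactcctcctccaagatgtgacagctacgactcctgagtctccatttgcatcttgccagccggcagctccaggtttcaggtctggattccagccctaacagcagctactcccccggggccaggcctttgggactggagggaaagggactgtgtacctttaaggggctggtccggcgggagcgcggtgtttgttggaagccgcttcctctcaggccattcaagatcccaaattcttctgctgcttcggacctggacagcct
Vcan, chr13:89742463-89742762, minus strand: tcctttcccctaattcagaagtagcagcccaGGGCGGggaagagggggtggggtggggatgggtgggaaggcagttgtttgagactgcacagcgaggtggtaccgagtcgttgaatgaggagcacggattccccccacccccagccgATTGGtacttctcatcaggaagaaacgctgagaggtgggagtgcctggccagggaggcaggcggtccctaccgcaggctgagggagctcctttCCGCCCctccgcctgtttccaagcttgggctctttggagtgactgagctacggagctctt
Hapln1, chr13:89540386-89540685, plus strand: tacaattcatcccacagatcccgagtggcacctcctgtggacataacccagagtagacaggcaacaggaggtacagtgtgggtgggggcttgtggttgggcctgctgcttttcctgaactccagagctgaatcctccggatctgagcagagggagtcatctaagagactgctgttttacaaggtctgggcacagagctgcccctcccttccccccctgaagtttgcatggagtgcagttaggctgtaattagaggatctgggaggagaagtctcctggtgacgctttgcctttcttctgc

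The Vcan window held 2 GC boxes, whose first bases lie 219 and 10 bases before the start, and a CCAAT box 103 bases before it. That of Cd44 had 1 GC box, just after the start, and that of Hapln3 a TATA box 239 bases before the start. The Hapln1 window matched none of the motifs. Among all 32851 promoter windows 35.7% hold a GC box, 37.4% a CCAAT box and 13.6% a TATA box. The share of G and C was 58.0% for Cd44, 57.0% for Hapln3, 61.0% for Vcan and 54.3% for Hapln1, beside a median of 52.7% over all windows. A match is only a description of the letters.

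In the mouse genome each hyalectan gene, the family of versican, lies next to a link protein gene: Vcan beside Hapln1, Acan beside Hapln3, Bcan beside Hapln2 and Ncan beside Hapln4. Hapln3 was higher in mesenchyme, and its neighbour Acan did not pass the test. Acan, the aggrecan gene, had 301, 130 and 81.8 in mesenchyme and 153, 183 and 169 in urothelium. Its log2 difference was 0.11 ± 0.45, with an interval from −0.89 to 1.11 (limma adjusted p = 0.924). The difference between these neighbours' changes was not tested. Of the 5 other hyalectan and link protein genes 0 had an adjusted p under 0.05 in limma, and with array weights 1 of the 5 did. Without weights and at the adjusted threshold, 8.91% of all genes were higher in mesenchyme and 5.80% in urothelium. The share with weights is not given here. An unadjusted p under 0.05, for which no share of all genes is given here, was reached by 1 of the 5. This was Bcan, a brain hyalectan gene. It had 138, 133 and 197 in mesenchyme and 5.06, 63.3 and 73.5 in urothelium (−1.21 ± 0.42, limma adjusted p = 0.0862). In the mean of its probe sets the difference was −0.82 and not past the test (adjusted p = 0.187). The differences of Hapln4, Hapln2 and Ncan were −0.36, −0.051 and 0.18. Acan, Bcan, Ncan and Hapln2 were named after their values were seen.

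**Figure D3:**
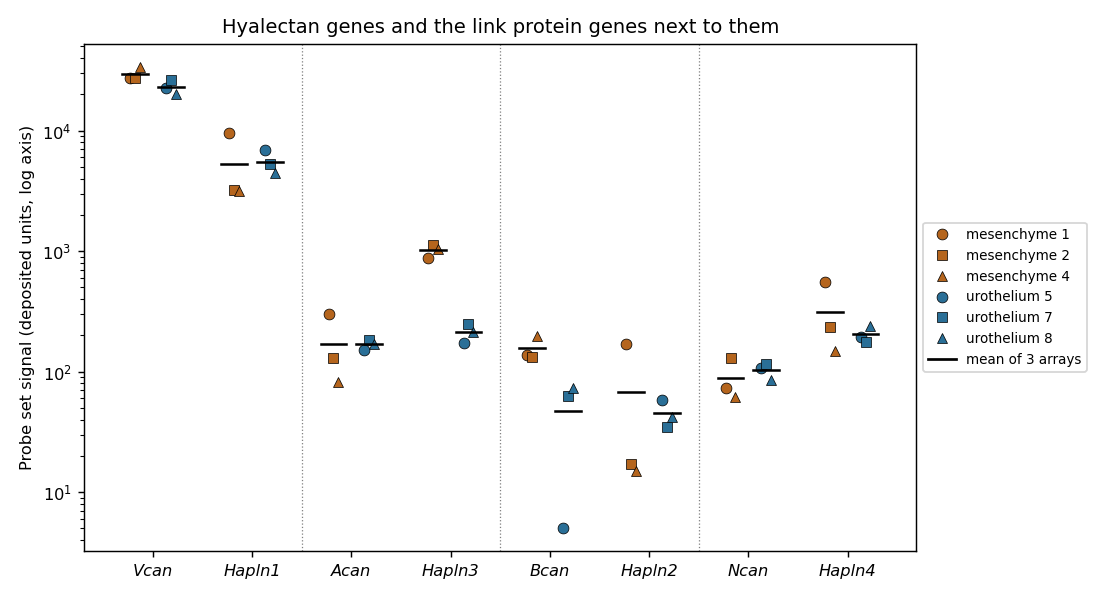
Signal on each array, on a log axis, for the 4 hyalectan genes and the link protein gene beside each of them, with mesenchyme in brown, urothelium in blue and a bar at the mean of 3 arrays. The arrays of the compartments do not overlap for Hapln3, Vcan and Bcan, and they overlap for Acan, the neighbour of Hapln3. Hapln3 passed the test, and Vcan, Bcan and Hapln1 did not.

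Of 8 measured enzyme genes of the sugar precursors, 1 was higher in mesenchyme and 0 in urothelium, with a median of −0.56, beside shares of 8.91% and 5.80% over all genes. It was Ugdh, whose enzyme makes UDP-glucuronic acid, with 34479, 27232 and 29223 in mesenchyme and 17244, 13368 and 11568 in urothelium (−1.12 ± 0.26, limma adjusted p = 0.0128). Its call was lost without urothelium 7 (−1.09, adjusted p = 0.0731) and with arrays centred on their medians (−0.93, adjusted p = 0.129), which left the count at 0.

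Among 7 other measured genes of hyaluronan breakdown 2 were higher in mesenchyme and 0 in urothelium (median 0.00090). The same shares over all genes were 8.91% and 5.80%. Cemip, whose product is needed for hyaluronan breakdown by fibroblasts, had 710, 949 and 1069 against 138, 11.9 and 92.4 (−3.07 ± 0.50, limma adjusted p = 0.00158). With the mean of its probe sets it was −1.23 and not past the test (adjusted p = 0.0715). Hexa, a lysosomal hexosaminidase subunit gene, had 12229, 25748 and 16032 against 5702, 3082 and 5738 (−1.87 ± 0.35, adjusted p = 0.00370).

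Another list held 18 measured genes linked to the binding of hyaluronan or its matrix. Whether each product binds hyaluronan directly was not assessed. Of these genes, 6 were higher in mesenchyme, 2 were higher in urothelium and 10 did not pass the test (median −0.73). Beside this, 8.91% of all genes were higher in mesenchyme and 5.80% in urothelium. Lyve1, the hyaluronan receptor of lymphatic endothelium and of some macrophages, differed most: 1824, 2684 and 3001 in mesenchyme against 9.73, 89.3 and 3.30 in urothelium (−5.14 ± 0.49, limma adjusted p = 3.92e-05). Ptx3, which helps to crosslink hyaluronan matrix, differed by −3.19 ± 0.53 and Stab1, a scavenger receptor gene of macrophages and sinusoidal endothelium, by −3.00 ± 0.44. In the mean of probe sets Lyve1 differed by −3.51 and Ptx3 by −2.12, both past the test. Endothelial and macrophage markers moved the same way as Lyve1 and Stab1, and their part in these results was not tested. Those higher in urothelium, named after their values were seen, were Itih2 (2.42 ± 0.45), which encodes a heavy chain that is joined to hyaluronan, and the innate immune receptor gene Tlr2 (1.79 ± 0.36). Hmmr, a hyaluronan-binding protein gene of dividing cells, had 8065, 9348 and 9236 against 6569, 8128 and 7143 (−0.29 ± 0.24, adjusted p = 0.536).

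Genes of the ADAMTS proteases that can cut versican were higher in mesenchyme for 5 of 7 members and in urothelium for 0, with a median of −2.27. Of all genes tested, 8.91% were higher in mesenchyme and 5.80% in urothelium. Adamts20 had 1558, 3849 and 4505 in mesenchyme and 118, 1.22 and 219 in urothelium (−4.60 ± 0.65, limma adjusted p = 0.000572). The differences of Adamts9 and Adamts4 were −3.27 ± 0.28 and −3.15 ± 0.43, and in the mean of their probe sets −1.31 and −2.22, both past the test. Not past the test were Adamts5 (−0.74 ± 0.45), which passed with array weights (−0.87), and Adamts1. Adamts1 had 10963, 5258 and 5612 in mesenchyme and 8137, 5846 and 4721 in urothelium (−0.17 ± 0.34), and its sign turned with arrays centred on their medians (0.012). Vcan itself did not pass the test, whereas 5 of these 7 protease genes did, but the difference between their changes was not tested.

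Enzymes that build and sulfate the chondroitin chains of versican were higher in mesenchyme for 4 of 20 measured genes and in urothelium for 0 (median −0.62). They were the sulfotransferase gene Chst15 (−4.26 ± 0.49, or −2.81 in the mean of its probe sets), Dse (−3.33 ± 0.39) and Chst14 (−2.77 ± 0.28), whose enzymes help to turn the chain into dermatan sulfate, and Csgalnact1 (−2.21 ± 0.35), whose enzyme starts the chain. With array weights the counts were 10 and 1. Over all genes, without such weights, 8.91% were higher in mesenchyme and 5.80% in urothelium. The share of all genes with array weights is not given here, so the weighted counts have no background beside them. For Chst15, Dse and Chst14 the signals in mesenchyme were 2958 to 3869, 1023 to 1565 and 7671 to 10285, and in urothelium 36.8 to 264, 70.2 to 97.8 and 991 to 1560.

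Of 14 measured partners of CD44 and versican, 6 were higher in mesenchyme, 2 were higher in urothelium and 6 did not pass the test (median −0.88). The shares over all genes were 8.91% in mesenchyme and 5.80% in urothelium. Fbn2, a microfibril gene, differed by −4.59 ± 0.28 and the matrix glycoprotein gene Tnc by −3.53 ± 0.50. In the mean of probe sets these were −3.97 and −2.00, and those of Msn, Ezr and Met, given next, were −2.55, 1.53 and 2.51, all past the test. Of the 3 ERM genes, which encode the adaptors between CD44 and actin, Msn was higher in mesenchyme, Ezr was higher in urothelium and Rdx did not pass the test. Msn (moesin) had 12295, 13085 and 12517 in mesenchyme and 1435, 687 and 604 in urothelium (−3.83 ± 0.34, limma adjusted p = 2.50e-05). Ezr (ezrin) had 1162, 2357 and 2954 against 15915, 21666 and 20414 (3.22 ± 0.35, adjusted p = 8.81e-05). Rdx (radixin) had 34732, 23908 and 21727 against 35099, 21627 and 16950 (−0.16 ± 0.32, adjusted p = 0.827), and its sign turned with arrays centred on their medians (0.024). The other gene higher in urothelium was the HGF receptor gene Met (3.41 ± 0.34). Csgalnact1, Ezr, Met, Rdx, Adamts1, Adamts5 and Hmmr were named after their values were seen.

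**Figure D4:**
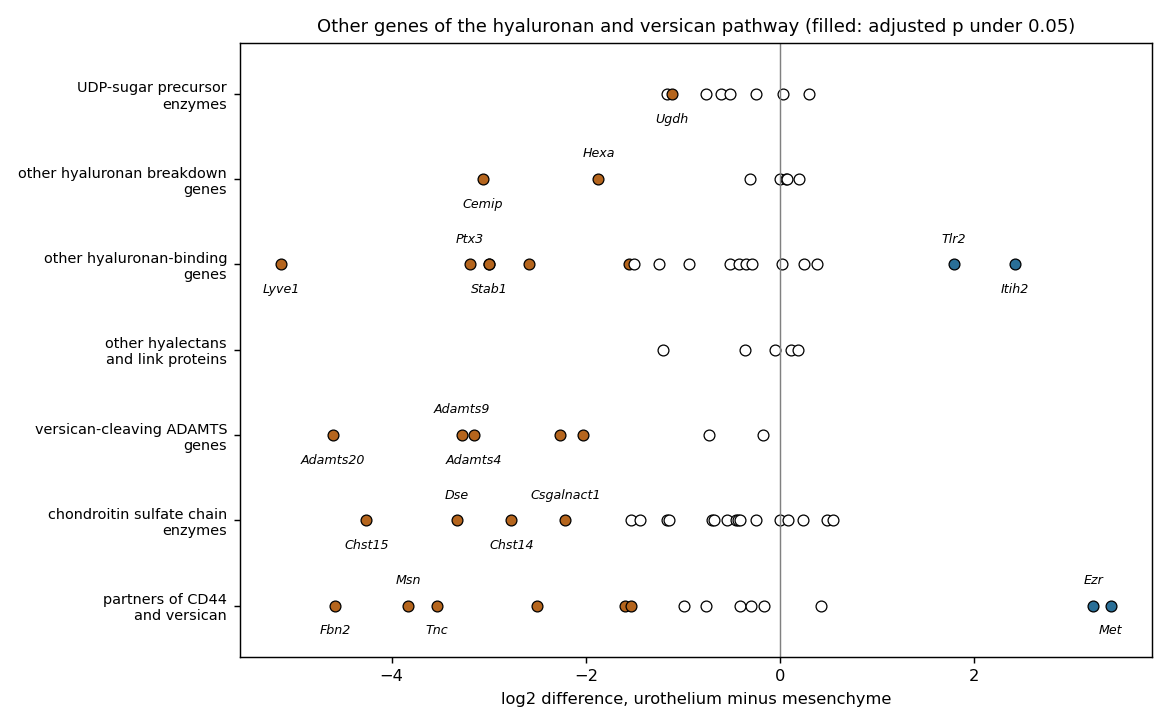
Log2 difference, urothelium minus mesenchyme, for each measured gene of the 7 further lists, with filled points for an adjusted p under 0.05 (brown higher in mesenchyme, blue in urothelium). In the list of ADAMTS genes 5 of 7 points are filled, and the list of other hyalectans and link proteins has none. Of all genes, 8.91% were higher in mesenchyme and 5.80% in urothelium.

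The genes whose pattern came closest to that of Has2 over the 6 arrays were Nid2, Mest and Cavin2. Has2 was picked for its difference between compartments, and such a difference is part of the pattern compared. The log2 differences of these genes were −4.62, −4.56 and −4.47, beside −4.39 for Has2. The measure was the root mean square distance between log2 values, each centred on its own mean, over 9095 genes above the median signal, and it was 0.24, 0.24 and 0.27. Nid2, a basement membrane gene, had 9502, 4830 and 6187 in mesenchyme and 252, 201 and 224 in urothelium. Among the mesenchyme arrays it was highest on mesenchyme 1 and lowest on mesenchyme 2, as was the brighter probe set of Has2, on which this measure rests, but not the dimmer one. Mest, an imprinted gene of embryonic mesoderm, ran from 24782 to 33958 in mesenchyme and from 1050 to 1316 in urothelium, and Cavin2, a gene of caveolae, from 18558 to 26180 and from 592 to 1188. No such genes were sought for urothelium, as 0 of the 8 genes were higher there.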

How the data were processed

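The authors' deposited values are intensity on a linear scale, 1 for each probe set and array; GCOS, Affymetrix's operating software, is named per the submitters' processing notes, with no algorithm given in the sources used here. Every array had a 2% trimmed mean of 1500, so no further scaling was done. Such scaling would hide a difference in total RNA. The 64 control probe sets were left out. Of the others, 34945 had a single gene symbol, and 1 probe set a gene was used, that with the highest mean log2 signal. Symbols were checked through Entrez identifiers against RefSeq genes (34741 matched, 0 changed). Compartments were compared with limma 3.58.1 under R 4.3.3 over 6 arrays (eBayes with an intensity trend) on log2(signal + 45), 45 being the 25th percentile of all values, with Benjamini-Hochberg adjustment over 18193 genes or all probe sets. The fit was tested on simulated data.

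The members and gene lists were chosen with earlier results of these data known. All 9 members were named, and of each further list up to 3 that passed the test with the largest differences, or else the brightest; later choices are stated. Alternatives were pseudocounts of 1 and 179, quantile normalization, median centring, a filter on dim genes, no trend, array weights, the mean of probe sets and leaving out arrays. The labels name no batch or date.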

Additional observations from a re-analysis of the deposited data

How the results depend on the processing

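The calls of Has2, Cd44 and Hapln3 kept their direction and stayed past the test under all 43 values that the alternatives gave for them, with log2 differences of −5.00 to −3.43, −4.16 to −1.15 and −2.26 to −1.61. With only genes above the median signal 1 of the 8 genes was higher in mesenchyme, because Cd44 and Hapln3 were not tested there. Leaving out 1 array gave 0 to 1 genes higher in urothelium, the 1 being Has3 without urothelium 7. Of 73 values for the other 5 genes, 66 kept direction and call, 1 passed and 6 turned sign, and the causes were not tested. Those 6 were all negative and came from leaving out 1 array. Over every fit with 1 array left out, differences ran from −0.31 to 0.72 for Has1 and −0.026 to 0.76 for Hapln1. The same ranges of other genes that turned were −0.21 to 0.52 for Acan, −0.38 to 0.16 for Adamts1, −0.37 to 0.55 for Hapln2, −0.72 to 0.092 for Hapln4 and −0.45 to 0.071 for Rdx. Hapln2 was 0.30 with a pseudocount of 1, 0.092 after quantile normalization, 0.14 with median centring, 0.33 with array weights and 0.050 averaged over its probe sets. Without mesenchyme 1 and urothelium 5 together Hapln2 was 0.45 and Hapln4 0.11. Adamts1 was 0.012 with median centring and 0.044 with array weights, Rdx 0.024 with median centring, and Ncan −1.04 in the mean of probe sets. Median centring moved the median of all genes by 0.19. Array weights brought Bcan past the test (−1.03). The filter on dim genes left 3 ADAMTS genes, 3 other binding genes and 1 breakdown gene higher in mesenchyme and 1 binding gene in urothelium. Breakdown genes were also 1 in the mean of probe sets, and precursor genes 2 with array weights. Shares of all genes under these alternatives are not given here. No paired analysis was possible because the compartments share no replicate number. Dim signals, as of Has1 and Has3, limit what can be told.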
